A study of Mus musculus with 12 samples.

Results

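The genes that tell MSU-42011 from bexarotene in mammary tumors were sought by comparing 4 MSU-42011-treated tumors directly with 4 bexarotene-treated tumors, which are 8 of the 12 tumors sequenced. The other 4 tumors came from mice fed control diet, and their values are given beside the comparison. All 12 were mammary tumors of female MMTV-Neu mice, a model of HER2+ breast cancer. In this model the mouse mammary tumor virus promoter drives unactivated, wild-type Neu (Erbb2) in mammary tissue. Mice with palpable tumors of 4 mm received MSU-42011 or bexarotene at the same dose (100 mg/kg diet) and for the same 10 days, so the pair was matched for dose and time. Poly(A) RNA was sequenced from a frozen piece of each tumor, which holds stroma and immune cells besides the tumor epithelium. The ages of the mice are not given in the sources used here, and no source says whether the replicate numbers mark cages, litters or days. The study fed 4 mice per group, and each of the 4 tumors of a group has a tumor number of its own.

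Retinoid X receptors (RXRs) are nuclear receptors that bind DNA together with a partner, such as a retinoic acid receptor (RAR), a liver X receptor (LXR), a peroxisome proliferator-activated receptor (PPAR) or the vitamin D receptor. An RXR ligand can switch on the genes of permissive partners by itself, and LXR and PPAR are the best known of these, with target genes in cholesterol export, lipid synthesis and fatty acid oxidation. Bexarotene is an approved drug of this class, and MSU-42011 is a newer RXR agonist. Because both bind the same receptors, the direct comparison asks which responses are not shared.

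Between 16583413 and 25925027 reads were counted on genes in each tumor, and 3 counts, taken as the floor of detection, corresponded to 0.111 to 0.184 CPM (read counts scaled to the size of the library). Floors cover counting error only. All 12 tumors expressed the epithelial adhesion gene Epcam at 1353 to 2533 CPM. Bexarotene tumor 1 stood apart from all others. It lay at −115 on the first principal component, where the other 11 tumors lay between −16.2 and 34.2, and its correlations with them had a median of 0.915, where no other tumor had a median under 0.961. Its level of fibroblast and matrix genes was 5.80 on the log2 scale relative to control tumors, and skeletal muscle genes stood at 3.70 in it and 2.48 in control tumor 1. The comparison was therefore fitted with and without bexarotene tumor 1, and values are over all tumors unless said otherwise.

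No gene told the 2 agonists apart at an adjusted p under 0.05 by edgeR's quasi-likelihood test, in which 54532 listed genes were reduced to 15504 with enough counts. The smallest Benjamini-Hochberg adjusted p was 0.770 with all tumors and 0.939 without bexarotene tumor 1. At an unadjusted p under 0.05, 127 genes (0.819% of those tested) were higher and 485 (3.13%) lower with MSU-42011 than with bexarotene. Without bexarotene tumor 1 the 2 directions were nearly even, with 249 genes (1.59% of 15619 tested) higher and 230 (1.47%) lower. In all, 612 genes with all tumors and 479 without that tumor were under the threshold, fewer than a share of 0.05 of those tested. A share of 0.05 is what this threshold gives on average where no gene differs. Of the 485 lower genes, 398 (82.1%) had their highest value in bexarotene tumor 1, which held the highest value of 19.1% of all tested genes. With that tumor left out, 101 of the 485 lower genes and 74 of the 127 higher genes still had a p under 0.05 in the same direction.

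The intervals of the differences show how alike the 2 treatments can be said to be. For 10670 genes (68.8%) the whole 95% interval of the difference lay within 2-fold in either direction, and for 10583 (67.8%) it did so without bexarotene tumor 1. The median standard error of a log2 fold change was 0.22 in both fits. The median log2 fold change over all tested genes was −0.024 with all tumors and −0.00011 without bexarotene tumor 1, and 45.1% and 49.97% of genes were higher with MSU-42011. These are the backgrounds against which the gene lists below are read.

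DESeq2, a second count model, called 25 genes at an adjusted p under 0.05, all lower with MSU-42011 (0.153% of 16309 genes with an adjusted p). Among them were Dpt, Col14a1, Fbln1, Tnxb and Svep1, which encode proteins of the extracellular matrix. Without bexarotene tumor 1 it called 3 genes (0.0103% of 29117), of which Prdm16 and Rps6kl1 were lower and Klhl29 higher with MSU-42011. Prdm16 was the only gene that DESeq2 called in both fits. Single tumors also decided how many genes edgeR placed at an unadjusted p under 0.05. Leaving out MSU-42011 tumor 2 gave 369 higher and 618 lower genes, and leaving out bexarotene tumor 3 gave 382 and 860. Leaving out bexarotene tumor 2 gave 69 and 519, and leaving out bexarotene tumor 4 gave 161 and 805.

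**Figure D1:**
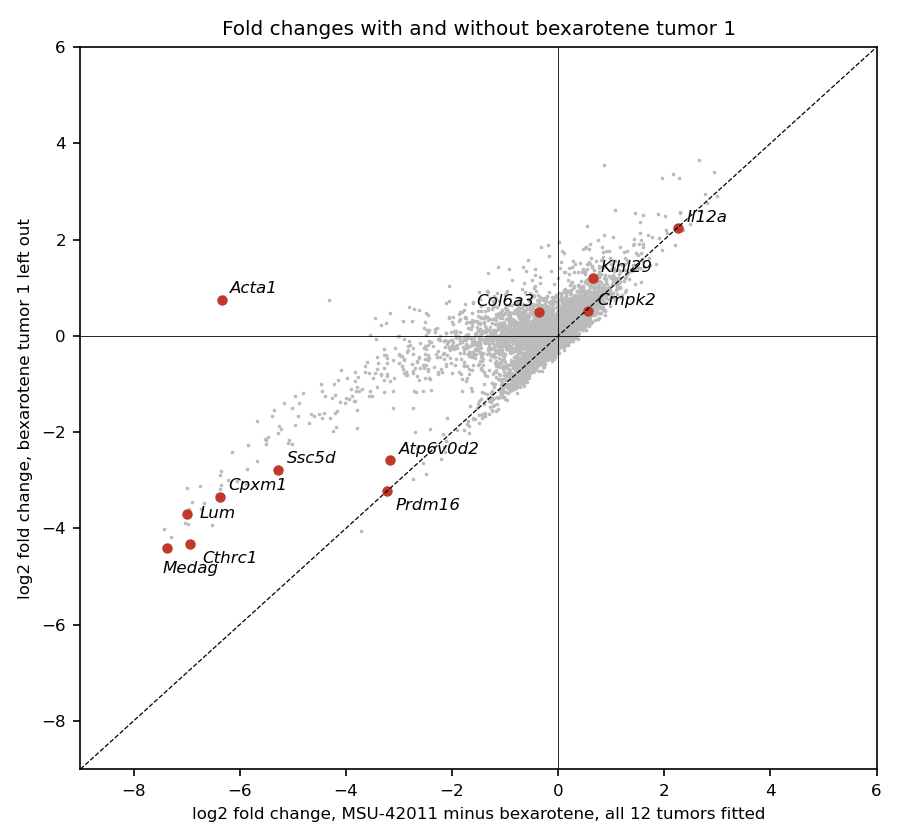
Each gray point is 1 gene tested in both fits, with its log2 fold change (MSU-42011 minus bexarotene) over all tumors on the x axis and without bexarotene tumor 1 on the y axis; the dashed line marks equal values. Prdm16 sits on the line at −3.22 on both axes, Cthrc1 and Medag lie above it, and Acta1 goes from −6.34 to 0.75.

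Prdm16 had the smallest DESeq2 adjusted p in both fits. It encodes a zinc finger transcription regulator known for brown fat identity and for stem cell maintenance, and lies at chr4:154316125-154636873 on the minus strand (GRCm38). In MSU-42011 tumors 1 to 4 it measured 0.33, 0.485, 0.379 and 1.47 CPM. The 4 bexarotene tumors stood at 6.199, 8.92, 7.12 and 3.19 CPM. All MSU-42011 tumors were below all bexarotene tumors and all control tumors (3.32, 8.66, 4.49 and 4.697 CPM), and bexarotene and control tumors overlapped. The values rest on 56 reads over the 4 MSU-42011 tumors and 554 over the 4 bexarotene tumors. The log2 fold change was −3.22 ± 0.53 (SE, 95% interval −4.36 to −2.07), which is 9.30-fold less with MSU-42011. EdgeR gave an unadjusted p of 4.97e-05 and a Benjamini-Hochberg adjusted p of 0.770, and DESeq2 an adjusted p of 8.91e-07. Without bexarotene tumor 1 the log2 fold change was −3.22 (edgeR adjusted p 0.939, DESeq2 adjusted p 2.36e-05). The exact two-sided permutation test gave p = 0.0286, the smallest that 4 tumors against 4 can give. Every gene whose groups do not overlap has this p. Prdm16 was among the genes picked for no overlap and a small p, so this p adds no support.

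The promoter of Prdm16 is printed because RXR partners recognize the half-site AGGTCA and its variants GGGTCA (with G first), AGTTCA (with a T inside) and GGTTCA (with both), and a reader may look for them there. The window runs from 250 bases before the RefSeq start of the gene to 50 after it (GRCm38.p6, chr4:154636824-154637123, minus strand, RefSeq).
Prdm16: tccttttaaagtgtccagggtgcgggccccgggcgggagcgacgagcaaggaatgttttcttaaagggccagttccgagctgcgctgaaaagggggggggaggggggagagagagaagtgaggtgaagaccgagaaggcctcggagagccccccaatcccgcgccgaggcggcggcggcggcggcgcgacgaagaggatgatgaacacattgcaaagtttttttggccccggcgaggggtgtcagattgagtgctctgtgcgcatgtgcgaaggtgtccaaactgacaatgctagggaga
No half-site was found on either strand, so no letter is in capitals. Of 32851 RefSeq promoter windows of this length, 43.7% held at least 1 half-site. Pairs of half-sites in direct repeat with 1, 4 or 5 bases between them (DR1, DR4, DR5) were in 0.222%, 0.0822% and 0.0974% of windows and not in this one. These matches describe letters in a window and say nothing of binding elsewhere.

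Across all genes, 181 (1.17%) separated the groups fully, with all 4 MSU-42011 tumors above all 4 bexarotene tumors in 98 and below them in 83. Without bexarotene tumor 1, 534 genes (3.42%) did so against the remaining 3. If the group labels carried no information, 4 tumors against 4 would separate a share of 0.0286 of genes on average, above the 1.17% seen. That share is larger for 4 against 3. The genes described next come from this set, which did not exceed that share. Of the fully separated genes, 27 higher and 34 lower ones also had an unadjusted edgeR p under 0.05 in both fits. Predicted genes and pseudogenes made up 5 and 6 of these, and the 15 higher and 15 lower genes with the smallest p of the rest are described next. As the groups were required not to overlap, each has the smallest possible permutation p, and that p is not repeated.

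**Figure D2:**
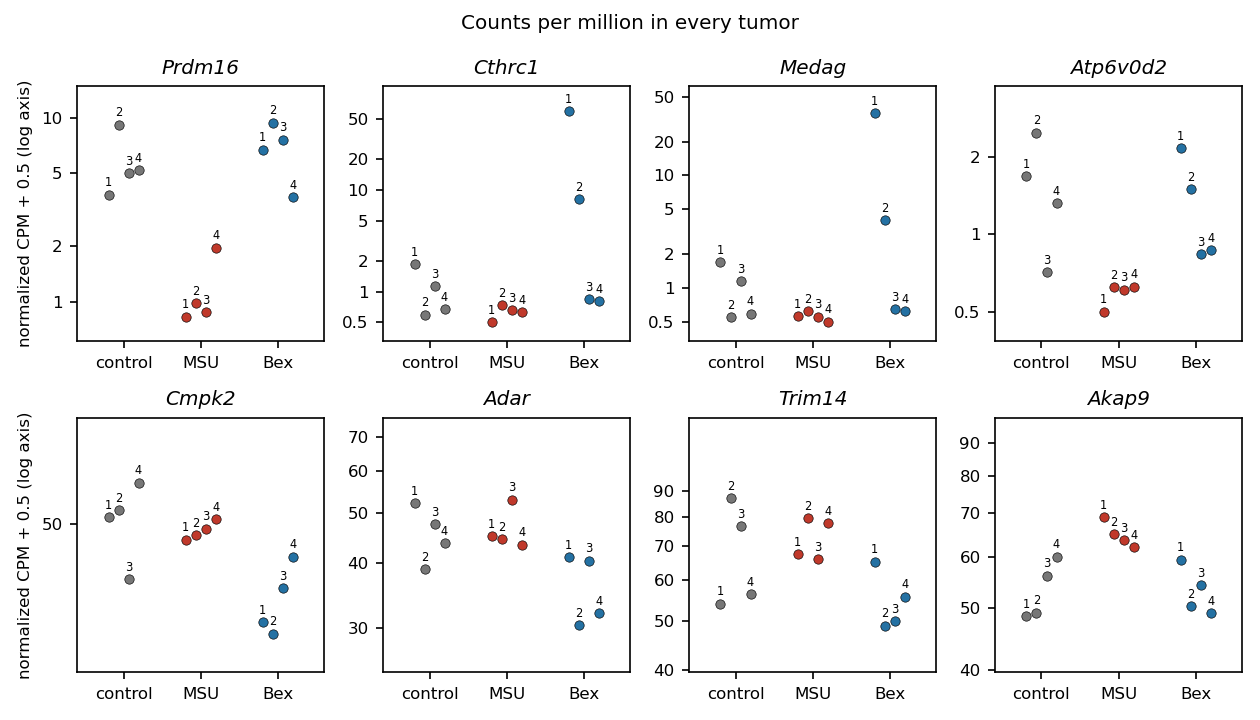
Normalized CPM plus 0.5 on a log axis for 8 genes whose MSU-42011 tumors (MSU, red) do not overlap bexarotene tumors (Bex, blue), with control tumors in gray; each point is 1 tumor and carries its replicate number. Bexarotene tumors 1 and 2 hold the high values of Cthrc1 and Medag, and Prdm16 is low in all 4 MSU-42011 tumors.

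Among the 15 genes higher with MSU-42011, Cmpk2, an interferon-induced nucleotide kinase of mitochondria, measured 45.2, 46.5, 48.2 and 50.9 CPM with MSU-42011 and 27.7, 25.9, 33.95 and 40.9 CPM with bexarotene. Control tumors 1, 2 and 4 (51.6, 53.7 and 63.2 CPM) lay above all MSU-42011 tumors, and control tumor 3 (35.8 CPM) within the bexarotene range. The log2 fold change was 0.57 ± 0.18 (edgeR, unadjusted p 0.00680). Against control tumors it was −0.10 with MSU-42011 and −0.67 with bexarotene. Adar, the RNA-editing enzyme ADAR1, measured 44.5, 43.9, 52.4 and 42.8 CPM with MSU-42011 and 40.5, 29.9, 39.9 and 31.5 CPM with bexarotene. Trim14, an adaptor of antiviral signaling, ran from 65.7 to 79.2 CPM with MSU-42011 and from 48.4 to 64.8 CPM with bexarotene, so that the nearest tumors nearly touched. Il12a, the p35 subunit shared by interleukin-12 and interleukin-35, had a log2 fold change of 2.26 with MSU-42011 tumor 2 at 8.54 CPM, and 0.55 without that tumor. The other MSU-42011 tumors stood at 0.770 to 0.922 CPM and the bexarotene tumors at 0.477 to 0.674 CPM. Exons of Adar overlap those of Chrnb2 on the opposite strand over 16.8% of their length and those of Trim14 overlap Nans over 31.3%, and the strand setting of the counting is not given in the sources used here.

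Hspa1a, the inducible heat shock protein HSP70, ran from 14.4 to 21.3 CPM with MSU-42011 and 7.49 to 13.4 CPM with bexarotene (log2 fold change 0.74, 0.59 without bexarotene tumor 1), and its reads can be shared with its near-identical neighbor Hspa1b. Edem3, which trims glycans of misfolded proteins in the endoplasmic reticulum, stood at 80.4 to 97.9 against 66.7 to 76.2 CPM. Ipo7, a nuclear import receptor, stood at 119.6 to 142 against 98.9 to 113 CPM. These 2 differed little in size, with log2 fold changes of 0.24 and 0.25. Ube2q2, a ubiquitin-conjugating enzyme, differed by 0.34 and Ormdl2, a brake on sphingolipid synthesis, by 0.44, the latter with 66.7% of its exon length shared with Dnajc14 on the other strand. Akap9, which scaffolds signaling enzymes at centrosome and Golgi, measured 68.6, 64.5, 63.1 and 61.5 CPM with MSU-42011 and 58.8, 49.7, 53.7 and 48.5 CPM with bexarotene. The log2 fold change was 0.29 ± 0.10, and control tumors (48.01 to 59.5 CPM) lay with the bexarotene tumors.

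At the cell surface, Boc, a co-receptor of Hedgehog ligands, ran from 174 to 223 CPM with MSU-42011 and 115 to 164 CPM with bexarotene (log2 fold change 0.49). Adgrg2, an adhesion G protein-coupled receptor, ran from 13.2 to 23.9 and 9.87 to 11.4 CPM (log2 fold change 0.67), and all 4 control tumors (15.6 to 22.9 CPM) were above the bexarotene tumors. With Il12a, the log2 fold changes above 1 in this set came from scarce transcripts. Sec14l4, a lipid-binding protein, had 97 reads over the MSU-42011 tumors and 15 over the bexarotene tumors (2.93 ± 1.06). Tg, thyroglobulin, had 128 and 49 reads (1.60 ± 0.54), and Pih1d2 stood at 2.14 to 3.64 and 0.668 to 1.901 CPM (1.08 ± 0.34). Txnip, an inhibitor of thioredoxin that is induced by glucose, also separated the groups and was chosen after its values were seen. It measured 1038, 979.6, 802 and 768 CPM with MSU-42011 and 694, 645, 762 and 697 CPM with bexarotene, above control tumors (542 to 754 CPM) in all 4 MSU-42011 tumors, with a log2 fold change of 0.36 ± 0.14 (0.35 ± 0.15 without bexarotene tumor 1).

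Among the 15 genes lower with MSU-42011, Atp6v0d2 followed the pattern of Prdm16 at a lower level. It encodes a proton pump subunit of osteoclasts and macrophages. MSU-42011 tumors measured 0, 0.121, 0.108 and 0.126 CPM, at most 3 reads each, and bexarotene tumors 1.66, 1.002, 0.339 and 0.368 CPM. Control tumors (0.214 to 1.99 CPM) were all above the MSU-42011 tumors. The log2 fold change was −3.16 ± 0.85, and −2.59 ± 0.85 without bexarotene tumor 1 (edgeR, unadjusted p 0.00278 and 0.0102). Prox2os, an antisense transcript of Prox2 whose reads cannot be told from those of Prox2 without strand, was likewise lower with MSU-42011 (0.0542 to 0.377 CPM) than with bexarotene (0.4797 to 0.763 CPM) and overlapped control tumors (0.284 to 1.07 CPM).

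Podxl2 and Inpp4a were highest with bexarotene. Podxl2, a sialomucin that binds selectins, measured 15.9, 10.97, 12.9 and 11.8 CPM with bexarotene and 4.34, 7.88, 3.41 and 5.95 CPM with MSU-42011. Control tumors were at 5.16, 4.97, 11.8 and 3.49 CPM, 3 of them within the MSU-42011 range and 1 within the bexarotene range, and the log2 fold change was −1.25 ± 0.37. Inpp4a, a phosphatase of phosphoinositides, ran from 23.1 to 28.3 CPM with bexarotene, 18.3 to 22.1 CPM with MSU-42011 and 19.5 to 22.4 CPM with control diet (log2 fold change −0.39). The scarce transcripts Eno4, an enolase of sperm, Map10, a microtubule-binding protein, and Rpp25, a subunit of RNase P, were lower with MSU-42011 by log2 fold changes of −1.32, −1.52 and −2.17. In each of these 3 genes the lowest bexarotene tumor was above the highest MSU-42011 tumor, as the selection required. Cst10, a cystatin, differed by −2.55 ± 0.83 with at most 1.43 CPM in any tumor of either group.

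Arl6ip5, a membrane protein of the endoplasmic reticulum, measured 72.1, 78.6, 75.3 and 73.1 CPM with MSU-42011 and 98.8, 86.6, 93.7 and 88.5 CPM with bexarotene (log2 fold change −0.30 ± 0.09). The transporter gene Mfsd10 differed by −0.34 and Lmbr1l, a receptor of lipocalin, by −0.35. Mfsd10 ran from 31.2 to 40.7 CPM with bexarotene and 27.03 to 28.6 CPM with MSU-42011.

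Fibroblast and matrix genes had the lowest median of 38 lists in both fits, and the list stood highest in bexarotene tumors 1 and 2. Cthrc1, a secreted protein of activated fibroblasts, measured 58.97, 7.58, 0.339 and 0.307 CPM in bexarotene tumors 1 to 4. MSU-42011 tumors held 0, 0.242, 0.163 and 0.126 CPM, 10 reads in all, and control tumors 1.36, 0.0947, 0.641 and 0.172 CPM. Bexarotene tumors 3 and 4 were thus just above MSU-42011 tumors and below 2 of the control tumors. The log2 fold change was −6.94 ± 1.72 with all tumors and −4.33 ± 1.26 without bexarotene tumor 1 (edgeR, unadjusted p 0.00160 and 0.00499). Medag, a gene of adipogenic stroma, went from −7.38 to −4.41, and Ssc5d, a secreted scavenger receptor-like protein, from −5.28 to −2.78. Fitted folds of this size depend on the few reads on the MSU-42011 side, 4 for Medag and 17 for Ssc5d, and Medag shares 36.7% of its exon length with Gm20488.

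The other genes with the smallest p over all tumors shared this shape without full separation. Cpxm1, a carboxypeptidase-like protein, measured 105, 9.21, 1.02 and 0.307 CPM with bexarotene and 0, 0.303, 0.867 and 0.2096 CPM with MSU-42011. H19, an imprinted noncoding RNA, measured 72.9, 5.06, 0.533 and 0.9196 CPM with bexarotene and 0.0419 to 0.788 CPM with MSU-42011. Gas7 and Adgrd1 went from log2 fold changes of −4.31 and −5.67 to −1.70 and −2.61 without bexarotene tumor 1. The chemokine gene Ccl6 went from −5.38 to −1.67, with 215 CPM in bexarotene tumor 1 and at most 10.3 in any other treated tumor. Ccl8, another chemokine, and C1qtnf3, an adipokine, both called by DESeq2 over all tumors, went from −5.87 and −6.75 to −2.77 and −3.12.

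Some DESeq2 calls over all tumors were on genes below the count filter of the edgeR fit. Mmp9, a gelatinase, measured 11.4, 1.67, 0.387 and 0.245 CPM with bexarotene and 0 to 0.182 CPM with MSU-42011. Lrrc17 showed the same order, with 37.6, 2.77, 0.484 and 0.368 CPM against 0.0542 to 0.242 CPM. Both kept all bexarotene tumors above all MSU-42011 tumors, as did Aldh1a2, which makes retinoic acid from retinaldehyde (5.203, 3.005, 0.0969 and 0.184 CPM against 0 to 0.0606 CPM). For Aldh1a2 only bexarotene tumors 1 and 2 were clear of the detection floor. Kif26b, Pdpn and Ccl11 overlapped between the groups, and in each the highest values were those of bexarotene tumor 1 (34.2, 56.5 and 27.8 CPM) and then tumor 2 (3.39, 4.63 and 4.24 CPM).

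The whole fibroblast and matrix list followed. All 20 listed genes were lower with MSU-42011 over all tumors, 18 at an unadjusted p under 0.05, with a median log2 fold change of −3.26. Without bexarotene tumor 1, 15 of 20 were lower, 5 at p under 0.05, with a median of −0.58. Dcn, the proteoglycan decorin, measured 345, 30.4, 0.484 and 0.429 CPM with bexarotene and 0.165, 3.39, 0.108 and 0.2096 CPM with MSU-42011. Lum, lumican, went from a log2 fold change of −6.99 to −3.70. Pdgfra, the receptor that marks fibroblasts, stood at 100.0 CPM in bexarotene tumor 1 and 3.004 to 9.25 CPM in the other 3 (MSU-42011 4.95 to 7.204 CPM), and its log2 fold change went from −2.22 to −0.08. The list's level relative to control tumors was 5.80, 2.30, 0.07 and −0.50 in bexarotene tumors 1 to 4 and 0.16, −0.08, 1.29 and 0.16 in MSU-42011 tumors 1 to 4. In bulk tissue, fewer cells of a type and less RNA per cell cannot be told apart.

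Other lists of stromal and immune cells changed sign or came closer to 0 when bexarotene tumor 1 was left out. The median log2 fold change of 17 macrophage genes went from −0.93 to 0.09, of 17 complement genes from −1.47 to −0.03, of 21 chemokines and receptors from −1.25 to −0.23 and of 14 endothelial genes from −0.47 to 0.16. It went from −1.33 to 0.15 for 21 matrix proteases, from −0.71 to 0.32 for 9 pericyte and smooth muscle genes and from −3.17 to 0.37 for 5 skeletal muscle genes. Mrc1, the mannose receptor CD206 of macrophages, measured 160.1, 11.3, 5.86 and 5.21 CPM with bexarotene and 5.22, 3.76, 10.1 and 3.65 CPM with MSU-42011. The groups overlapped with and without bexarotene tumor 1. The log2 fold change of Mrc1 was −3.01 over all tumors and −0.39 (95% interval −1.26 to 0.47) without that tumor. Csf1r, the receptor of colony-stimulating factor 1, went from −0.95 to 0.20, and Mmp2, a gelatinase, from −3.22 to −0.79. Acta1, skeletal muscle actin, was at 95.2 CPM in bexarotene tumor 1, 60.3 CPM in control tumor 1 and at most 0.947 CPM in any other tumor, and Ckm, muscle creatine kinase, was also highest in these 2 tumors. The part of stroma and muscle in the gene differences was not tested.

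**Figure D3:**
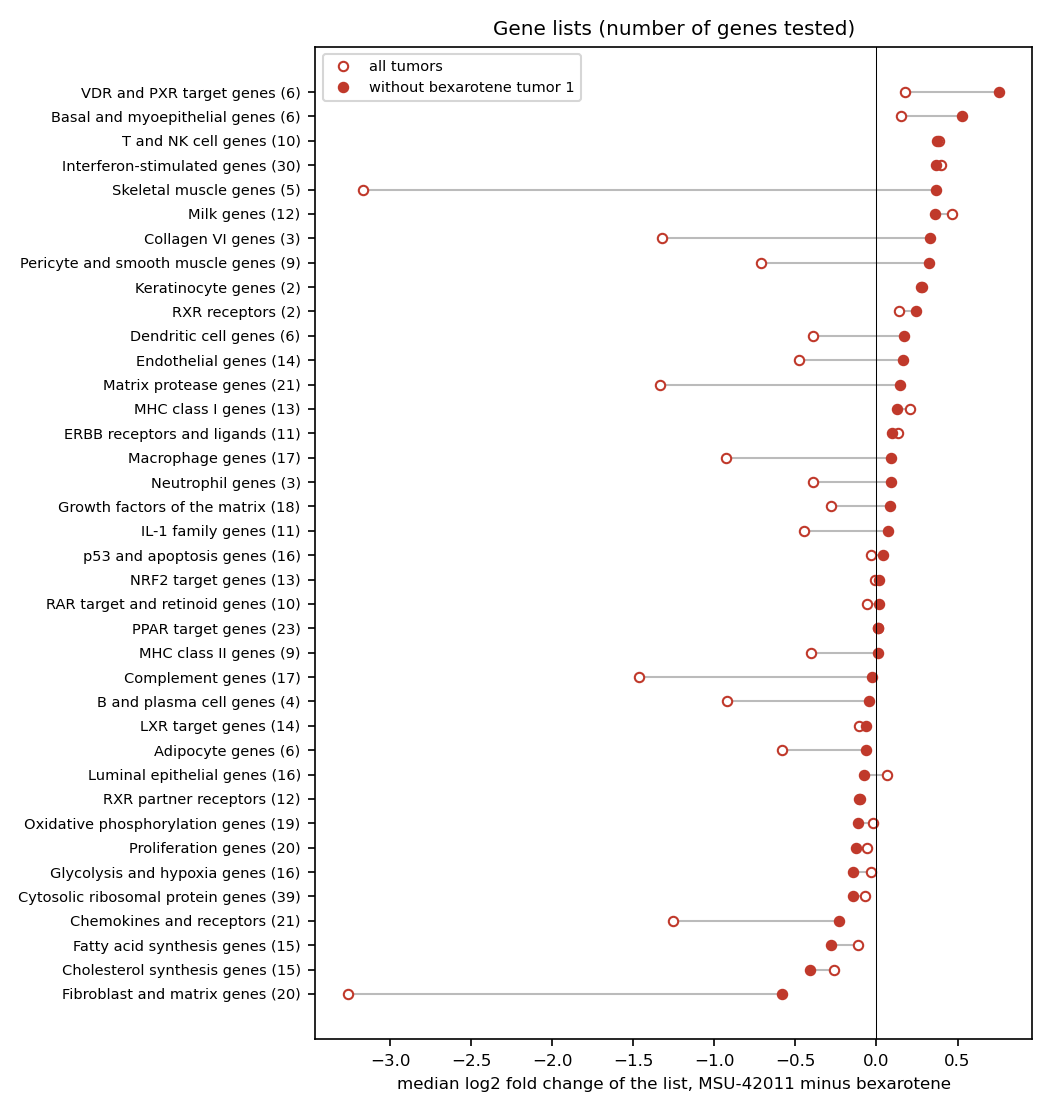
Median log2 fold change (MSU-42011 minus bexarotene, x axis) of each of 38 gene lists, with all tumors (open circles) and without bexarotene tumor 1 (filled circles); the number of genes tested without that tumor stands beside each name. Stromal and myeloid lists move toward or past 0 when tumor 1 is left out, while interferon-stimulated genes stay at 0.40 and 0.37.

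With bexarotene tumor 1 left out, Klhl29 and Rps6kl1 joined Prdm16 among the genes called by DESeq2. Klhl29, a gene of the kelch family, measured 8.799, 12.1, 11.9 and 11.5 CPM with MSU-42011 and 6.44, 3.15 and 4.905 CPM in bexarotene tumors 2 to 4. Control tumors (9.57 to 14.3 CPM) lay in or above the MSU-42011 range, and bexarotene tumor 1 was at 13.7 CPM. Its log2 fold change was 1.19 ± 0.26 without tumor 1 (edgeR adjusted p 0.939, DESeq2 adjusted p 0.0427) and 0.65 ± 0.36 with it. Rps6kl1, a kinase-like protein, measured 18.2, 14.97, 15.7 and 17.6 CPM with MSU-42011, below all 4 control tumors (20.8 to 24.7 CPM). Bexarotene tumors 2 to 4 were at 26.4, 25.9 and 25.2 CPM and tumor 1 at 16.5 CPM. The log2 fold change was −0.63 ± 0.12 without tumor 1 (DESeq2 adjusted p 0.0427) and −0.50 ± 0.16 with it.

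A pair of genes chosen after their values were seen had the same dependence. Itgae, the integrin CD103 of resident T cells and dendritic cells, measured 3.08, 2.18, 4.55 and 2.47 CPM with MSU-42011 and 3.58, 1.05, 0.969 and 0.674 CPM with bexarotene, so that only bexarotene tumor 1 reached the MSU-42011 range. Its log2 fold change was 1.76 without that tumor and 0.95 with it. Irs1, the docking protein of the insulin receptor, measured 57.4, 44.2, 59.6 and 58.9 CPM with MSU-42011 and 51.3, 15.2, 38.4 and 25.7 CPM with bexarotene (log2 fold change 0.75, 1.06 without tumor 1, edgeR adjusted p 0.939 there). Its exons share 30.9% of their length with Gm9747 on the other strand, and those of Txnip and Podxl2 share 19.4% and 19.1% with other genes.

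The RXR genes themselves had small differences between the treatments. Rxra ran from 70.8 to 126 CPM with MSU-42011 and 58.6 to 103 CPM with bexarotene, and its log2 fold change was 0.20 (95% interval −0.29 to 0.69), and 0.40 (−0.07 to 0.86) without bexarotene tumor 1. Rxrb had 0.07 (95% interval −0.19 to 0.33), and Rxrg did not pass the count filter. The intervals of Rxra and Rxrb leave out a difference of 2-fold either way. Of 12 partner receptors, 3 were higher and 9 lower with MSU-42011, 1 at an unadjusted p under 0.05, with a median of −0.11. That one was Rara, the retinoic acid receptor alpha, at 16.7, 12.3, 25.1 and 14.5 CPM with MSU-42011 and 34.2, 27.5, 21.3 and 21.7 CPM with bexarotene. MSU-42011 tumor 3 lay within the bexarotene range, and the log2 fold change was −0.61 ± 0.25 (edgeR, unadjusted p 0.0317, adjusted p 0.997) and −0.46 ± 0.25 without bexarotene tumor 1.

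Target genes of LXR, PPAR and RAR had medians near that of all genes. Among 14 LXR targets, 4 were higher and 10 lower (median −0.11), and 7 and 7 without bexarotene tumor 1 (median −0.06). Abca1, the cholesterol exporter, measured 85.7, 31.6, 124 and 54.7 CPM with MSU-42011 and 136, 49.2, 71.6 and 42.3 CPM with bexarotene. The groups overlapped fully and the interval of the difference was wide (−1.10 to 1.07 on the log2 scale), so that it included 2-fold in either direction. Abcg1, a related exporter, had 0.08 (95% interval −0.85 to 1.00), and Pltp, the phospholipid transfer protein, was the 1 LXR target at an unadjusted p under 0.05 over all tumors (−3.22, −0.84 without bexarotene tumor 1, with 19.3% of its exon length shared with Ctsa on the other strand). Among 23 PPAR targets, 13 were higher and 10 lower, with medians of 0.01 and 0.01 in the 2 fits. Acsl1, which activates fatty acids, and Plin2, the coat of lipid droplets, were higher with MSU-42011 at an unadjusted p under 0.05 (log2 fold changes 0.35 and 0.51), but not without bexarotene tumor 1 (0.30 and 0.40). Plin2 and Pltp were chosen after their values were seen. For Cpt1a, the gate of mitochondrial fatty acid oxidation, the log2 fold change of −0.40 over all tumors became −0.0016 without tumor 1, with a 95% interval of −0.63 to 0.62.

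Angptl4 and Pdk4, which PPARs induce on fasting, varied widely between tumors of each group. Angptl4 measured 5.11, 12.97, 53.1 and 6.29 CPM with MSU-42011, 69.00, 5.82, 9.299 and 3.07 CPM with bexarotene and 17.03, 113, 12.9 and 10.8 CPM with control diet, and its 95% intervals were −2.53 to 2.18 and −0.50 to 3.83 without bexarotene tumor 1. Pdk4 had −1.26 ± 0.90. Among 10 RAR targets and retinoid genes, 4 were higher and 6 lower, with medians of −0.06 and 0.02. Aldh1a3 was the 1 of these at an unadjusted edgeR p under 0.05 over all tumors (−3.10, −0.50 without bexarotene tumor 1), and is named for that reason. Dhrs3, a retinaldehyde reductase that retinoic acid induces, had −0.14 (95% interval −0.66 to 0.38), and Crabp2, which carries retinoic acid to RAR, −0.42 (95% interval −1.12 to 0.28). The 6 tested targets of the vitamin D and pregnane X receptors had a median of 0.18, and 0.76 without bexarotene tumor 1, all 6 higher there. Abcb1b, a drug efflux pump, was the 1 of these at p under 0.05 (1.15 ± 0.52 without tumor 1, −0.87 with it). The 13 NRF2 targets, genes of antioxidant defense, had medians of −0.01 and 0.02.

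**Figure D4:**
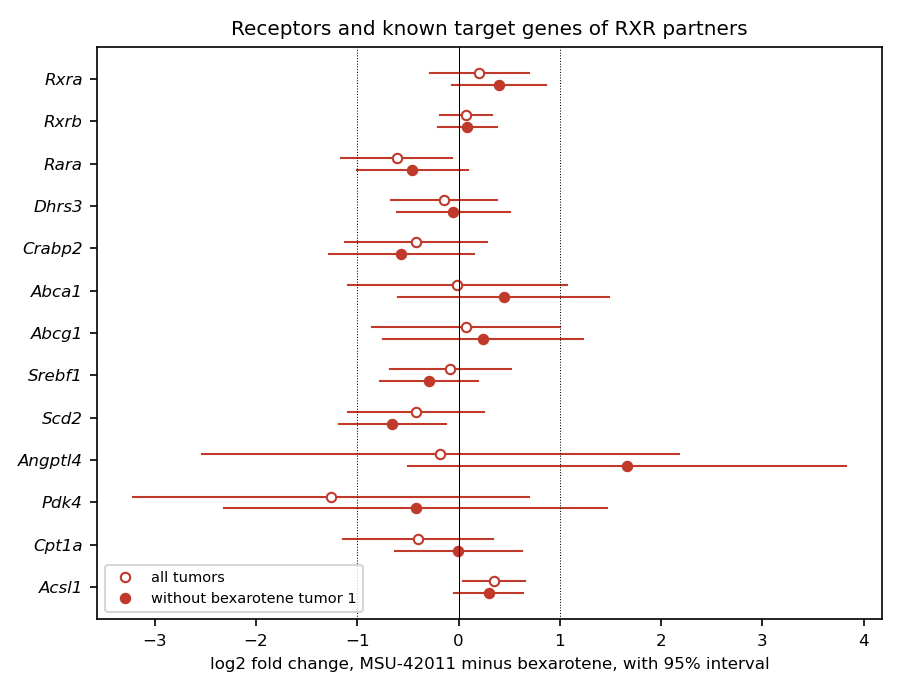
Log2 fold change (MSU-42011 minus bexarotene, x axis) with its 95% interval for receptors and targets of RXR partners, with all tumors (open circles) and without bexarotene tumor 1 (filled); dotted lines mark 2-fold. Rxra and Rxrb have intervals within the dotted lines, as has Dhrs3 over all tumors, and those of Angptl4 and Abca1 over all tumors cross both.

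In the list of 30 interferon-stimulated genes, MSU-42011 tumors had the higher fitted level in 27 over all tumors (median log2 fold change 0.40) and in 28 without bexarotene tumor 1 (median 0.37). In each fit 2 of the 30 had an unadjusted p under 0.05, Cmpk2 in both, with Irf9, a subunit of the interferon-activated factor ISGF3, over all tumors (0.35 ± 0.14, 0.31 ± 0.16 without tumor 1) and Parp14 without tumor 1 (0.55 ± 0.24). Irf9 was chosen after its values were seen. On the log2 scale with control tumors as reference, the list stood at −0.14, 0.06, −0.28 and 0.02 in MSU-42011 tumors 1 to 4 and −0.47, −0.61, −0.20 and −0.79 in bexarotene tumors 1 to 4. Bexarotene tumor 3 lay above MSU-42011 tumor 3, and the other 3 bexarotene tumors lay below all MSU-42011 tumors. Control tumors covered the whole range (−0.87 to 0.52). The median difference from control tumors was −0.21 for MSU-42011 and −0.55 for bexarotene, against the same controls.

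Ifit1, an antiviral protein that binds viral RNA, separated the groups fully, with 19.5, 20.1, 21.5 and 25.98 CPM with MSU-42011 and 14.5, 12.8, 17.9 and 10.9 CPM with bexarotene. Control tumors held both lower and higher values (11.1 to 47.5 CPM), and the log2 fold change was 0.63 ± 0.35 (edgeR, unadjusted p 0.0955). Ifit3, of the same family, had 0.90 ± 0.53 and, without bexarotene tumor 1, 1.16 ± 0.57. Isg15, a ubiquitin-like modifier, measured 18.6, 35.5, 24.1 and 34.95 CPM with MSU-42011 and 15.8, 19.1, 24.9 and 18.1 CPM with bexarotene. These overlapped, with a log2 fold change of 0.54 (95% interval −0.24 to 1.32). Of neighboring lists, 13 of 13 MHC class I genes were higher with MSU-42011 over all tumors (median 0.21) and 9 of 13 without bexarotene tumor 1 (0.13), none at an unadjusted edgeR p under 0.05. Of 11 T and NK cell genes, 8 were higher, also none at p under 0.05, with a median of 0.38 (0.37 without bexarotene tumor 1). Leaving out 1 tumor at a time gave medians from −0.0011 to 0.51. Relative to control tumors, the level of this list was −0.18, −0.16, 0.44 and −0.39 in MSU-42011 tumors 1 to 4. It was −0.11, −0.23, −0.05 and −0.30 in bexarotene tumors 1 to 4.

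Promoter windows of 3 of these genes are printed to show the interferon-stimulated response element, which was searched as GAAA followed by any 2 bases and a second GAAA, in capitals on either strand (GRCm38.p6, RefSeq). Isg15 lies at chr4:156200769-156201068, minus strand, Ifit1 at chr19:34640639-34640938, plus strand and Cmpk2 at chr12:26468965-26469264, plus strand.
Isg15: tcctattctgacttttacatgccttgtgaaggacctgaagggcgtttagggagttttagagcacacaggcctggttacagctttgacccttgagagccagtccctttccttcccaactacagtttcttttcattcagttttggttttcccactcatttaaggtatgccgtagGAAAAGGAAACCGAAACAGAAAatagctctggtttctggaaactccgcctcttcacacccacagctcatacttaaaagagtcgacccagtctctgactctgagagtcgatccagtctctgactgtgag
Ifit1: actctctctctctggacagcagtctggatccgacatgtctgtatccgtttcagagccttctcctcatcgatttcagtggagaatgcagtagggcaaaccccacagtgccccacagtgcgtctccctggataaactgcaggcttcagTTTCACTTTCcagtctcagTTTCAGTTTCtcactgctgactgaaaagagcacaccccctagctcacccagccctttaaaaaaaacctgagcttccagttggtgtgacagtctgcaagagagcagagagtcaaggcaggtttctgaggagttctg
Cmpk2: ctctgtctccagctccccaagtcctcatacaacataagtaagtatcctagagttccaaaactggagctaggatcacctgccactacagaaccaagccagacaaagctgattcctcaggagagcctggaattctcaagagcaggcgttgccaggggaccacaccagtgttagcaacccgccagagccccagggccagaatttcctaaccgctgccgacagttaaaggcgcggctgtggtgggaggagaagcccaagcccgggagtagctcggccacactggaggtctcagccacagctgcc
Isg15 held 3 overlapping matches between 78 and 57 bases before the gene start, and Ifit1 held 2 on the opposite strand, from 104 to 95 and from 85 to 76 bases before it. Cmpk2, which also separated the groups, held none in this window. Of all 32851 windows, 3.44% held at least 1.

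**Figure D5:**
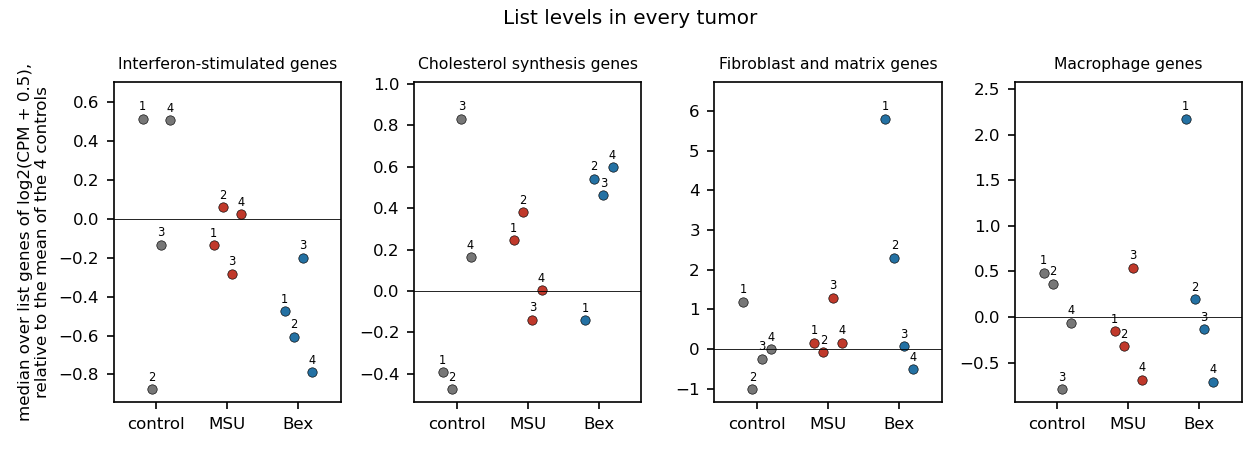
Level of 4 gene lists in each tumor, as the median over list genes of log2(CPM + 0.5) with the average control tumor at 0 (y axis), for control (gray), MSU-42011 (red) and bexarotene (blue) tumors numbered by replicate. Interferon-stimulated genes are lowest in bexarotene tumors 4, 2 and 1 among the treated tumors, and fibroblast and macrophage genes are highest in bexarotene tumor 1.

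Of 15 cholesterol synthesis genes tested, 14 were lower with MSU-42011 over all tumors (median −0.26), none at an unadjusted edgeR p under 0.05, and 15 without bexarotene tumor 1 (median −0.41), the latter with 2 at an unadjusted p under 0.05. The level of the list relative to control tumors was −0.14, 0.54, 0.46 and 0.60 in bexarotene tumors 1 to 4 and 0.24, 0.38, −0.14 and 0.004 in MSU-42011 tumors 1 to 4. Bexarotene tumors 2 to 4 lay above all MSU-42011 tumors, tumor 1 lay at the lower end, and control tumors ran from −0.47 to 0.83. Insig1, the sterol sensor that restrains SREBP, measured 51.7, 161, 120.3 and 156 CPM with bexarotene and 61.9, 111, 44.96 and 48.3 CPM with MSU-42011, a log2 fold change of −0.88 ± 0.51 and, without tumor 1, −1.13 ± 0.48. Fdft1, squalene synthase, had −0.44 ± 0.24 and −0.60 ± 0.22, with 18.3% of its exon length shared with Ctsb on the other strand. Hmgcs1, an early synthase of the pathway, had −0.45 without tumor 1, not at p under 0.05.

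Of 15 fatty acid synthesis genes, 10 were lower over all tumors (median −0.11), none at an unadjusted edgeR p under 0.05. That median was 0.035 without bexarotene tumor 4. The count was 13 without bexarotene tumor 1 (median −0.28), with Scd2 and Elovl6 at an unadjusted p under 0.05 there. Scd2, a desaturase that makes oleate, measured 911, 696, 715 and 723 CPM with MSU-42011 and 482, 1024, 1114 and 1455 CPM with bexarotene. Only bexarotene tumor 1 was below the MSU-42011 tumors, and the log2 fold change was −0.42 ± 0.31 with it and −0.65 ± 0.24 without it. Elovl6, which lengthens palmitate, had −0.50 ± 0.29 and −0.64 ± 0.29. Fasn, fatty acid synthase, had −0.27 and −0.48, and Srebf1, the SREBP1 gene that sets the pathway, −0.08 and −0.29, neither at p under 0.05.

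Of 16 luminal genes, 10 were higher with MSU-42011 over all tumors (median 0.06) and 6 without bexarotene tumor 1 (median −0.08). Epcam had a log2 fold change of 0.13 (95% interval −0.26 to 0.52), and −0.0100 without tumor 1. The luminal keratins Krt8 and Krt18 were lower with MSU-42011 at an unadjusted p under 0.05 without tumor 1 (−0.34 ± 0.15 and −0.36 ± 0.16), as was the tight junction gene Cldn3 (−0.31 ± 0.14), while Esr1, the estrogen receptor, was higher (0.65 ± 0.26, 0.26 ± 0.32 over all tumors). Over all tumors the 1 luminal gene at p under 0.05 was Krt19, a keratin, at −5.51 ± 1.75 (−2.26 ± 1.29 without tumor 1). Krt19, Cldn3 and Esr1 are named because their p was under 0.05. Of 12 milk genes, 10 were higher in both fits (medians 0.47 and 0.36), none at an unadjusted edgeR p under 0.05. Csn2, beta-casein, measured 1607, 981, 2564 and 6675 CPM with MSU-42011 and 729, 805, 162 and 2389 CPM with bexarotene, and the groups overlapped (1.53 ± 0.85). Of 39 cytosolic ribosomal protein genes, 31 were lower over all tumors and 34 without tumor 1, with medians of −0.07 and −0.15 and none at an unadjusted edgeR p under 0.05. The median of 20 proliferation genes was −0.06 and −0.12.

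Of 11 tested ERBB receptors and ligands, 8 were higher with MSU-42011, and Nrg1 alone differed by more than 2-fold. Nrg1 encodes neuregulin 1, the ligand of ERBB3 and ERBB4. It measured 10.3, 8.92, 4.41 and 10.9 CPM in bexarotene tumors 1 to 4 and 1.21, 9.21, 0.542 and 1.17 CPM in MSU-42011 tumors 1 to 4. Control tumors were at 0.776 to 1.12 CPM, so that all 4 bexarotene tumors lay above every control tumor, as did MSU-42011 tumor 2 and, narrowly, tumors 1 and 4. MSU-42011 tumor 2 lay within the bexarotene range, and the log2 fold change of −1.51 ± 0.70 had an unadjusted edgeR p of 0.0519 and an adjusted p of 0.997. Without bexarotene tumor 1 it was −1.42 ± 0.74, and without MSU-42011 tumor 2 it was −3.13.

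The genes that the study singled out from these tumors were compared in the same way. By qPCR, the study reported higher Il18, Col6a3, Map9 and H2-Aa with MSU-42011 than with control diet. It reported no such rise of Il18, Col6a3 or Map9 with bexarotene, and tissue staining gave the same contrast for Il18 and Col6a3 protein. In the sequenced tumors, log2 fold changes from control with MSU-42011 and with bexarotene were 0.79 and 1.23 for Il18, 1.56 and 1.91 for Col6a3, and −1.41 and 0.17 for H2-Aa. Without bexarotene tumor 1, those with bexarotene were 1.17 for Il18, 1.06 for Col6a3 and −1.33 for H2-Aa. Il18, a cytokine of the interleukin-1 family, measured 1.92, 1.45, 2.93 and 2.85 CPM with MSU-42011, 3.51, 3.1, 3.003 and 2.88 CPM with bexarotene and 1.72, 1.28, 1.02 and 1.29 CPM with control diet. All bexarotene tumors were above all control tumors, MSU-42011 tumor 3 lay in the bexarotene range and tumor 4 just below it, and the log2 fold change was −0.45 (95% interval −1.06 to 0.17, exact two-sided permutation p = 0.0571 for 4 against 4). Col6a3, a chain of collagen VI, measured 36.7, 61.9, 123 and 39.4 CPM with MSU-42011 and 196, 23.99, 25.8 and 88.9 CPM with bexarotene. The difference on the log2 scale was −0.36 ± 0.65 with all tumors and 0.50 ± 0.56 without bexarotene tumor 1, and the 3 collagen VI genes tested, Col6a3 included, had medians of −1.33 and 0.33. Map9, a spindle protein, was above 1 CPM only in MSU-42011 tumors 3 and 4 and bexarotene tumor 3 (4.01, 1.34 and 1.45 CPM), with a log2 fold change of 1.25 (95% interval −1.36 to 3.86). H2-Aa, an MHC class II chain, went from −1.58 to −0.08 without bexarotene tumor 1, and Cd74, the invariant chain that travels with it, from −1.30 to 0.11.

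Gria3, Clec10a, Fndc1, Islr2 and Itga11 were again highest in bexarotene tumor 1. Gria3, a glutamate receptor subunit below the edgeR count filter, measured 17.7, 2.38, 0.387 and 0 CPM with bexarotene and 0.0542 to 0.424 CPM with MSU-42011. Clec10a, a lectin of macrophages and dendritic cells, measured 61.7, 5.48, 1.21 and 0 CPM with bexarotene and 0.5499 to 0.848 CPM with MSU-42011. Bexarotene tumor 4 was at 0 for both genes, below all MSU-42011 tumors. The log2 fold changes of Clec10a, Fndc1, Islr2 and Itga11 were −4.59, −5.02, −3.88 and −3.75 with all tumors and −1.66, −1.504, −1.25 and −1.14 without tumor 1, where none had an unadjusted edgeR p under 0.05. Il33, an alarmin of stromal cells from the interleukin-1 family list, stood at 107, 7.63, 0.0969 and 0.368 CPM with bexarotene and 0 to 0.545 CPM with MSU-42011 (−7.43 ± 2.05, −4.01 ± 1.502 without tumor 1).

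The remaining lists are given by their medians over all tumors and without bexarotene tumor 1. These were −0.39 and 0.17 for 6 dendritic cell genes, −0.39 and 0.09 for 3 neutrophil genes, −0.92 and −0.04 for 4 B and plasma cell genes and −0.41 and 0.01 for 9 MHC class II genes. They were −0.45 and 0.07 for 11 genes of the IL-1 family, −0.28 and 0.08 for 18 growth factors of the matrix and −0.58 and −0.06 for 6 adipocyte genes. Basal and myoepithelial genes (6 tested) had 0.15 and 0.53 and keratinocyte genes (2 tested) 0.28 and 0.28. Krt17, a keratin of the basal list, was its 1 gene at an unadjusted edgeR p under 0.05 without bexarotene tumor 1 (log2 fold change 3.56, 0.86 over all tumors). Lists of cell state were near the background, with −0.02 and −0.12 for 19 genes of oxidative phosphorylation, −0.03 and −0.15 for 16 of glycolysis and hypoxia and −0.03 and 0.04 for 16 of p53 and apoptosis.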

How the data were processed

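RNA was taken from 12 frozen mammary tumors (4 per group), and poly(A) libraries were sequenced. The authors deposited raw read counts per gene, with FPKM values, scaled to library size and gene length, derived by the authors from the same reads. The submitters' processing notes name STAR 2.6.1d, featureCounts 1.5.0-p3 and DESeq2, and strand and overlap settings are not given in the sources used here. Gene coordinates equal those of the GRCm38 annotation for 98.3% of the 54409 genes in both. Groups follow the sample titles.

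The counts were tested with edgeR 4.0.16 (R 4.3.3) by the quasi-likelihood test with TMM scaling, after edgeR's filter on low counts, in a fit of all 12 tumors with 3 group means and in a fit without bexarotene tumor 1. P-values were adjusted by Benjamini-Hochberg over all tested genes. Values per tumor are TMM-normalized CPM, and permutation tests and list levels used log2(CPM + 0.5). DESeq2 1.42.0, other filters and scaling, a replicate block, the agonist tumors alone, limma 3.58.1 on log2(FPKM + 1) and leaving out each tumor were the alternatives. Scripts were tested on simulated data.

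Named genes were the 15 higher and 15 lower with no overlap and p under 0.05 in both fits, by smallest p without bexarotene tumor 1. To these were added the 10 genes with the smallest p over all tumors, DESeq2 calls, genes named in the study, and up to 5 per list by order and p. Predicted genes and pseudogenes were only counted in the first set. The comparison and the 38 lists (600 distinct genes, some in more than 1 list) were chosen with earlier results of these data known. No pair of tumors of a group agreed within sampling noise. RefSeq promoter windows were matched by symbol for 69 of 101 genes looked up. Some genes are not reported here.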

Additional observations from a re-analysis of the deposited data

Results flagged for a closer look

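In 29 of 417 groups of 4 tumors, 1 tumor stood apart by Dixon's test, which flags about 1 in 20 groups by chance. Bexarotene tumor 1 was the tumor in 11 of these, MSU-42011 tumor 2 in 6 and MSU-42011 tumor 1 in 5. In bexarotene tumor 1, Rps6kl1 (16.5 CPM), Fdft1 (31.1 CPM) and Krt18 (525 CPM) were low, and Acta1 (95.2 CPM), Ckm (21.03 CPM) and Abcb1b (6.35 CPM) were high. The levels of its collagen VI genes (3.69), endothelial genes (1.79), pericyte and smooth muscle genes (1.86), adipocyte genes (0.99) and skeletal muscle genes (3.70) were high on the log2 scale relative to control tumors.

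In MSU-42011 tumor 2, Il12a (8.54 CPM), H19 (0.788 CPM), Dcn (3.39 CPM), Lum (0.788 CPM) and Dhrs3 (136 CPM) were set apart, as was Irs1 (44.2 CPM). In MSU-42011 tumor 1, Ipo7 (142 CPM), Edem3 (97.9 CPM), Atp6v0d2 (0 CPM), Klhl29 (8.80 CPM) and Scd2 (911 CPM) were. For Atp6v0d2 no MSU-42011 tumor was above the detection floor, with 0, 2, 2 and 3 reads in tumors 1 to 4. MSU-42011 tumor 3 stood apart in Rxra (126 CPM) and in the level of the RXR genes (0.23), and MSU-42011 tumor 4 in Pdgfra (4.95 CPM). Ube2q2 was at 32.7 CPM in bexarotene tumor 4. Among control tumors, tumor 1 stood apart in Adgrd1 (1.25 CPM) and skeletal muscle genes (2.48), and tumor 2 in Rxra (118 CPM).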

How the results depend on the processing

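EdgeR called no gene at an adjusted p under 0.05 under any alternative but 1, and the counts at an unadjusted p moved. Without a filter on low counts, 310 genes were higher and 1109 lower over all tumors, and 510 and 449 without bexarotene tumor 1, where 1 gene, Prdm16, had an adjusted p under 0.05 (0.0422). At least 10 counts in every tumor gave 308 lower genes and the agonist tumors alone 292. DESeq2 called 25 genes over all tumors and 3 without bexarotene tumor 1, and 42 and 4 without its Cook's distance filter. Its unadjusted counts were 197 higher and 729 lower over all tumors (200 and 905 without that filter), and 393 higher without bexarotene tumor 1 (396). Leaving out 1 tumor at a time gave 69 to 382 higher and 230 to 860 lower genes over all tumors, and 146 to 978 and 94 to 835 from the fit without bexarotene tumor 1. In the latter, leaving out MSU-42011 tumor 2 gave 700 and 809, bexarotene tumor 3 978 and 835, bexarotene tumor 2 146 and 94, and MSU-42011 tumor 3 149 and 145. Leaving out MSU-42011 tumor 1 gave 129 lower and bexarotene tumor 4 149 higher genes. The cause was not tested.

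A replicate block gave 190 higher and 225 lower genes and no adjusted call by edgeR. Same-numbered tumors of the 2 groups deviated with correlations of −0.0079, 0.32, −0.017 and 0.12 for numbers 1 to 4, so the numbers were not taken to pair the tumors. With the block, Col6a3, Abca1, Angptl4 and Abcb1b changed sign, to 0.14, 0.071, 0.25 and 0.013. Abca1 also did so without the filter (0.0094) and by DESeq2 (0.0023), and Col6a3 (0.00029), Abcg1 (−0.024) and Angptl4 (0.18) by limma on log2 FPKM.

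Of 94 genes, 79 never changed sign. The 94 include genes chosen because their groups did not overlap or for a small p, which largely fixes their sign beforehand. The count is therefore no measure of stability. When 1 tumor was left out, the values of the genes that changed sign ran as follows. Col6a3 ran from −0.86 to 0.50, Map9 from −0.17 to 2.24, Rxra from −0.039 to 0.40, Dhrs3 from −0.40 to 0.014 and Abca1 from −0.38 to 0.45. Abcg1 ran from −0.16 to 0.32, Srebf1 from −0.29 to 0.087, Angptl4 from −1.43 to 1.67, Cd74 from −1.66 to 0.11 and Csf1r from −1.24 to 0.20. Epcam ran from −0.0100 to 0.22, Krt8 from −0.34 to 0.042, Acta1 from −7.79 to 0.75, Ckm from −3.74 to 0.48 and Abcb1b from −1.19 to 1.15.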
